A study of Mus musculus with 2 samples.

Results

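The transcripts described here are the epithelial signals and adhesion partners that intraepithelial lymphocytes meet in the small intestine, together with the lymphocyte receptors that read them. They were chosen by gene symbol, and all 10 of the 10 symbols were found among the 55357 gene rows of both deposited count tables. Of these genes, 7 are made by the epithelium (Btnl1, Btnl2, Btnl4, Btnl6, Il15, Ccl25 and Cdh1) and 3 by lymphocytes (Il2rb, Ccr9 and Itgae). The data are 1 droplet-based single-cell RNA library from Adipfl/fl mice, which carry loxP-flanked adiponectin alleles and serve as the control, and 1 library from Adipfl/flpVilli-CreT mice, which carry the same alleles and a Cre recombinase driven by the villin promoter of intestinal epithelial cells (called Villi-Cre below). Both libraries came from crypt-enriched small intestinal epithelium of adult male littermates, pooled by genotype according to the study's legends, so neither genotype has a replicate. All ratios between genotypes therefore compare 2 libraries, and every interval is a 95% interval for counting error only. The study asked with these libraries how adiponectin from Paneth cells acts on stem and transit-amplifying cells.

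Barcodes with more than 500 genes and under 25% mitochondrial unique molecular identifiers (UMIs, which count transcript molecules) were kept, 3069 of 9791 in the control and 5555 of 11838 in the Villi-Cre library, with 25687687 and 48895126 UMIs. Adipoq, the targeted gene, had 1 UMI over all control barcodes and 0 over all Villi-Cre barcodes, so that its level could not check the genotype labels. The libraries shared 31 barcode sequences, 3 of them among kept cells. Cells were clustered without the 10 genes and the pathway lists below among the variable genes, and named from marker lists as stem-like (37 control and 110 Villi-Cre cells), cycling (45 and 104), villus bottom-like (276 and 603), mid-villus-like (336 and 680), villus tip-like (888 and 2105), goblet-like (225 and 408), enteroendocrine-like (56 and 57), tuft-like (76 and 62), T cell-like (364 and 442) and cycling T cell-like (107 and 112). All 12 T cell markers were detected in T cell-like cells of both libraries, with summed levels of 74456 and 70519 UMIs per 1000000, whereas the 3 villus classes held between 37.0 and 221. Although crypts had been enriched, these stem-like and cycling cells were the fewest of the absorptive lineage. Depth differed along the villus, with medians of 21383 and 20063 UMIs per cell in villus bottom-like cells and 3538 and 3455 in villus tip-like cells. Levels below are a gene's UMIs, added up within a class, per 1000000 UMIs (CPM), control first and Villi-Cre second, and because only 3′ ends were counted they are compared within a gene.

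Intraepithelial lymphocytes are T cells, many with gamma delta receptors, that sit between the epithelial cells of the gut. Butyrophilin-like (Btnl) proteins on enterocytes select and maintain gamma delta cells of matching receptor type, and Btnl1 pairs with Btnl6 for the Vgamma7 cells of the mouse intestine. Interleukin 15 from enterocytes is presented to lymphocytes and sustains them through Il2rb, the shared beta chain of the interleukin 2 and interleukin 15 receptors. The chemokine Ccl25 draws lymphocytes with the receptor Ccr9 to the small intestine, and E-cadherin (Cdh1) is the epithelial partner of the integrin alpha E chain (Itgae, CD103), which pairs with integrin beta 7.

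The 4 Btnl genes lie in 1 stretch of mouse chromosome 17 (GRCm38, GENCODE M21), with Btnl2 at chr17:34354822-34369495 and Btnl1 at chr17:34377132-34386028 on the plus strand, and Btnl4 at chr17:34466562-34477318 and Btnl6 at chr17:34507804-34517352 on the minus strand. Their promoters are shown because 4 genes of 1 locus had unlike profiles along the villus. They run from 250 bases before to 50 bases after the RefSeq start (build GRCm38.p6), with capitals marking the letters CAAAGTNC, the core of sites bound by the enterocyte nuclear receptors Hnf4a and Hnf4g. The letters were searched on both strands, and they were chosen after the sequences had been seen.
Btnl1, chr17:34376882-34377181, plus strand: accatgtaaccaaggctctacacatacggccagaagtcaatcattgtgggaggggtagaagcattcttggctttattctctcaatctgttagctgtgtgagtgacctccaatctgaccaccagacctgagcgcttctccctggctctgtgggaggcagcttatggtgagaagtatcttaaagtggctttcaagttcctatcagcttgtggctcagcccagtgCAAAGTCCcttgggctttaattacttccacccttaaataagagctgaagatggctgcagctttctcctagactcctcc
Btnl2, chr17:34354572-34354871, plus strand: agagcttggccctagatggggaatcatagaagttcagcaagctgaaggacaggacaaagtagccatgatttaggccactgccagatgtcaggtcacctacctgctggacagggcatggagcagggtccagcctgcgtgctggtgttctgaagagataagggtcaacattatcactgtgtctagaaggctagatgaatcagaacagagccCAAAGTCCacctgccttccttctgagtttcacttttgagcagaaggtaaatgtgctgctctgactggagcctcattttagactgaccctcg
Btnl4, chr17:34475888-34476187, minus strand: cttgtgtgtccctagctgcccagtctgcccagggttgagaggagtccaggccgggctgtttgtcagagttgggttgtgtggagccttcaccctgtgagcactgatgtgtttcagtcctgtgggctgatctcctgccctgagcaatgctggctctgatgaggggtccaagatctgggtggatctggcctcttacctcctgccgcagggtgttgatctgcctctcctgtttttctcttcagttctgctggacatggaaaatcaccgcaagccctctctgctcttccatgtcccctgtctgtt
Btnl6, chr17:34517303-34517602, minus strand: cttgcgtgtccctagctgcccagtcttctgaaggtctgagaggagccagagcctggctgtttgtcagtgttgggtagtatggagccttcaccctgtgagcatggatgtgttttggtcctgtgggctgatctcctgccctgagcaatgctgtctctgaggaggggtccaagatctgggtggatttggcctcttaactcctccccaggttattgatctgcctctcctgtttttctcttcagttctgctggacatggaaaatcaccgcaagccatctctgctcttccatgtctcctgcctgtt
The letters occurred once in the Btnl1 window, from position -28 relative to the start, and once in the Btnl2 window, from position -41, both times as CAAAGTCC on the strand of the gene. They were in 1308 of 32851 promoters of the same length (3.98%), and were not in the Btnl4 and Btnl6 windows. The windows listed for Ccl25 and Ccr9, not printed here, were searched as well and did not hold the letters. Of the 6 members with a listed promoter, the letters were thus in Btnl1 and Btnl2 alone. The Btnl4 window lies wholly inside the GENCODE gene given above, downstream of its annotated 5′ end, whereas the windows of Btnl1, Btnl2 and Btnl6 span the annotated start. For Btnl4 the search thus covered the RefSeq start and not the annotated 5′ end. The windows of Btnl4 and Btnl6 were 91.1% identical over 302 aligned positions. The likeness of this pair extends to the counted part of the transcript, since the last 400 bases of Btnl4 were 92.2% identical to Btnl6, 86.7% to the pseudogene Btnl7-ps and 85.8% to Btnl5-ps. Both pseudogenes had counts of their own (1445 and 2102 UMIs for Btnl5-ps, 546 and 889 for Btnl7-ps, in kept cells), so that reads could be split among these rows and the levels of Btnl4 and Btnl6 are less certain than those of Btnl1 and Btnl2, whose ends matched no other Btnl transcript.

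Ccl25 was a transcript of the lower villus in both libraries. Its level was 243 CPM (213 to 276) in control stem-like cells and 255 CPM (236 to 275) in Villi-Cre stem-like cells, and 483 and 486 CPM in cycling cells. It was highest in villus bottom-like cells, at 999 CPM (975 to 1024) and 1019 CPM (1003 to 1035), then 633 and 642 CPM in mid-villus-like cells, and lowest at the tip, at 91.5 CPM (81.7 to 102) and 89.8 CPM (83.4 to 96.6). The bottom was thus 10.9-fold (9.75 to 12.3) above the tip in the control and 11.3-fold (10.5 to 12.2) in the Villi-Cre library, and no interval of neighbouring classes overlapped. After each cell was thinned to 2000 UMIs, 83.2% and 85.0% of villus bottom-like cells held a Ccl25 UMI against 15.2% and 16.1% of villus tip-like cells. T cell-like cells, in which Ccl25 should be absent, held 1 in 7.31% and 6.35% of thinned cells, so that the share over the whole tip class stood above that background. Against all T cell-like cells, this did not hold for every part of the class. Cluster 0, part of the tip class, held 33.6 and 40.1 CPM of Ccl25, against 38.3 and 54.2 CPM in T cell-like cells. Some T cell-like barcodes also held enterocyte markers (sub-cluster 5, described below). Without them T cell-like cells held 30.8 and 27.0 CPM, below cluster 0 by point values.

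Il15 had the opposite slope. In the control its level was 3.10 CPM (0.639 to 9.06, from 3 UMIs) in stem-like cells, 7.40 in cycling cells, 21.5 at the villus bottom, 40.5 at mid-villus and 108 CPM (97.1 to 119) at the tip. In the Villi-Cre library the same classes held 5.62, 13.1, 25.9, 41.7 and 68.7 CPM (63.1 to 74.7). The tip exceeded the bottom 5.02-fold (4.13 to 6.14) in the control and 2.65-fold (2.33 to 3.03) in the Villi-Cre library. The 3 villus classes kept the same order in both libraries without overlap of their intervals, whereas the intervals of stem-like and cycling cells overlapped in each. Thinned tip cells held an Il15 UMI in 17.7% and 12.4% of cases against 0.877% and 1.52% of T cell-like cells.

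**Figure D1:**
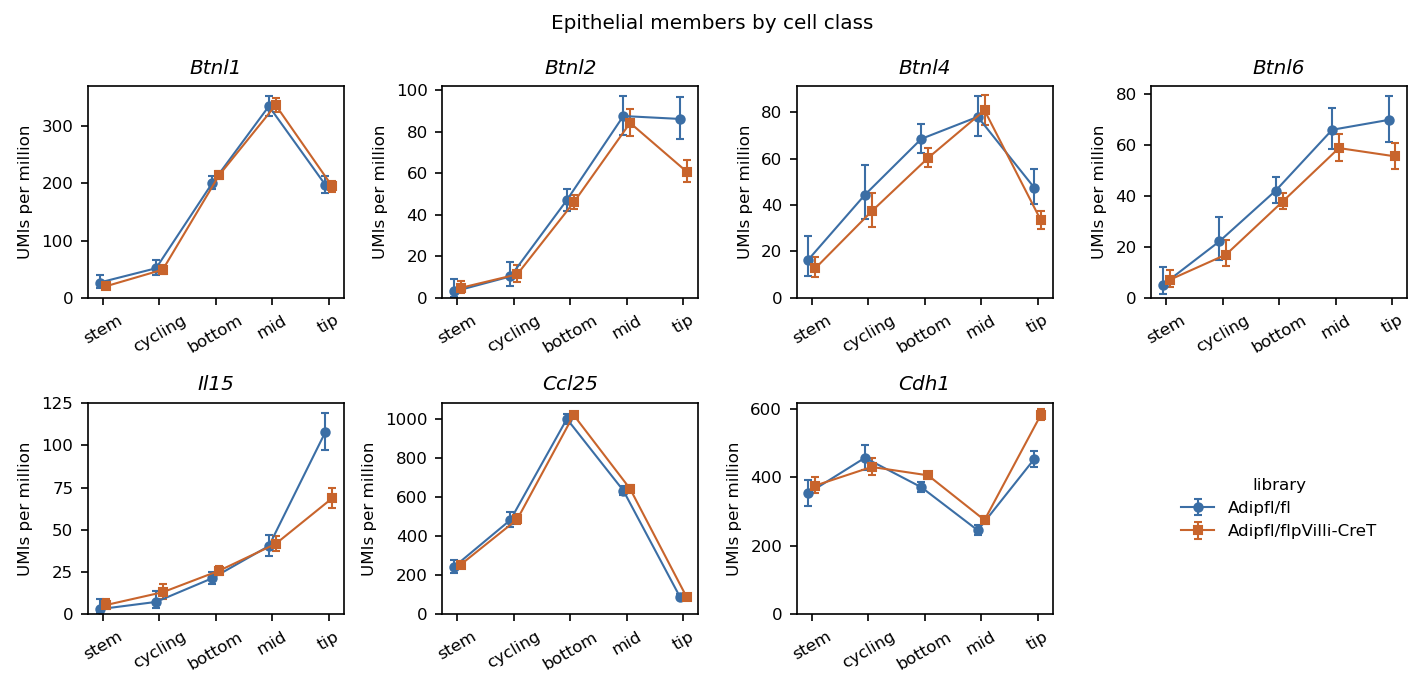
Levels of the 7 epithelial genes (UMIs per 1000000, linear axis from 0) in stem-like, cycling, villus bottom-like, mid-villus-like and villus tip-like cells, with circles for Adipfl/fl, squares for Adipfl/flpVilli-CreT and bars for exact Poisson 95% intervals. Ccl25 peaks at the bottom (999 and 1019) and Il15 at the tip (108 and 68.7), while Btnl1 peaks at mid-villus (335 and 336).

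The 4 Btnl genes were low in crypt-type cells and higher on the villus, with different heights of their peaks. Btnl1 was at 26.9 and 20.6 CPM in stem-like cells, 51.8 and 49.4 in cycling cells, 201 and 214 at the bottom, 335 (317 to 353) and 336 (324 to 350) at mid-villus, and 197 and 195 CPM at the tip. Its mid-villus level was thus 1.66-fold (1.54 to 1.80) and 1.57-fold (1.49 to 1.65) the bottom level, and 1.70-fold and 1.73-fold the tip level, in the control and Villi-Cre library. Among these classes, an arch with its top at mid-villus was present in both libraries. The ratio of tip to bottom was 0.982 (0.894 to 1.08) in the control and 0.909 (0.855 to 0.966) in the Villi-Cre library, where it left out 1. An unnamed enterocyte cluster outside these classes, cluster 3 (418 and 479 cells), held 368 and 346 CPM of Btnl1.

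Btnl2 was at 3.10 and 4.87 CPM in stem-like cells, 10.4 and 11.4 in cycling cells, 47.2 and 46.0 at the bottom, 87.7 and 84.4 at mid-villus, and 86.3 and 60.9 CPM at the tip. Mid-villus and tip did not differ beyond counting error in the control (ratio of tip to mid-villus 0.984, 0.840 to 1.15) and differed in the Villi-Cre library (0.722, 0.641 to 0.813). Btnl6 was at 5.17 and 7.11, 22.2 and 17.1, 42.2 and 37.8, 66.1 and 58.9, and 69.9 and 55.6 CPM in the same order of classes. Its tip-to-mid-villus ratio of 1.06 (0.886 to 1.27) in the control and 0.944 (0.827 to 1.08) in the Villi-Cre library held 1 within both intervals. Cluster 3 lay above mid-villus by point values for both genes, at 128 and 96.1 CPM of Btnl2 and 118 and 92.0 CPM of Btnl6. For Btnl6 this was 1.78-fold (1.47 to 2.15) and 1.56-fold (1.31 to 1.86) the mid-villus level.

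Btnl4 reached 44.4 CPM (33.9 to 57.1) and 37.3 CPM (30.5 to 45.2) in cycling cells already. It held 16.5 and 12.7 CPM in stem-like cells, 68.5 and 60.3 at the bottom, 78.0 and 80.8 at mid-villus, and 47.5 and 33.4 CPM at the tip. From cycling cells to the villus bottom it was higher by a factor of 1.54 (1.18 to 2.06) and 1.62 (1.32 to 2.00), against 3.88 (3.05 to 5.01) and 4.34 (3.66 to 5.19) for Btnl1. For Btnl6 the step was 1.90 (1.30 to 2.87) and 2.22 (1.65 to 3.04), with intervals that overlapped those of Btnl4. The intervals of Btnl4 and Btnl1 did not overlap, so the early profile of Btnl4 differed from that of Btnl1 beyond counting error in each library, although the shared sequence of Btnl4, Btnl6 and the pseudogenes bears on this value.

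Cdh1, which every epithelial cell needs for its junctions, was present throughout and, among the named classes of the absorptive lineage, lowest at mid-villus. Its level was 354 and 375 CPM in stem-like cells, 456 and 430 in cycling cells, 371 and 405 at the bottom, 245 (230 to 261) and 275 (263 to 287) at mid-villus, and 453 (430 to 476) and 582 CPM (566 to 599) at the tip. From mid-villus to tip it was higher 1.85-fold (1.70 to 2.00) in the control and 2.12-fold (2.01 to 2.23) in the Villi-Cre library. Among these classes, the dip at mid-villus was thus present in both libraries. Cluster 3, outside them, held less Cdh1, at 201 and 238 CPM. Cluster 1, part of the tip class, held 228 and 297 CPM.

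Because the classes rest on clustering, the 6113 absorptive cells with at least 20 UMIs of bottom and tip markers were also divided into 5 bins by the share of tip markers in these UMIs, with bin 1 at the bottom and bin 5 at the tip. Ccl25 was lower from each bin to the next, from 955 and 989 CPM in bin 1 to 34.7 and 52.0 CPM in bin 5. Il15 was higher from each bin to the next, with 24.6, 37.8, 61.5, 98.1 and 137 CPM in the control and 26.3, 42.6, 46.5, 56.9 and 84.1 CPM in the Villi-Cre library. Btnl1 was highest in bins 2 and 3 (333 and 336 CPM in the control, 323 and 313 CPM in the Villi-Cre library) and at 107 and 141 CPM in bin 5. Btnl2 and Btnl6 were highest in bin 3 of both libraries and Btnl4 in bin 2. Btnl2 was at 58.9 and 48.7 CPM in bin 5 against 115 and 86.6 CPM in bin 3, and Btnl6 at 38.6 and 33.4 CPM against 94.8 and 81.1 CPM, without overlap of these intervals in either library. The tip class also took in 556 cells of bin 3. Cdh1 was at 663 and 724 CPM in bin 5, against its lowest levels of 235 CPM in bin 3 of the control and 277 CPM in bin 2 of the Villi-Cre library. Of the 6113 cells, 2443 lay within 0.05 of a bin limit in their share of tip markers.

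**Figure D2:**
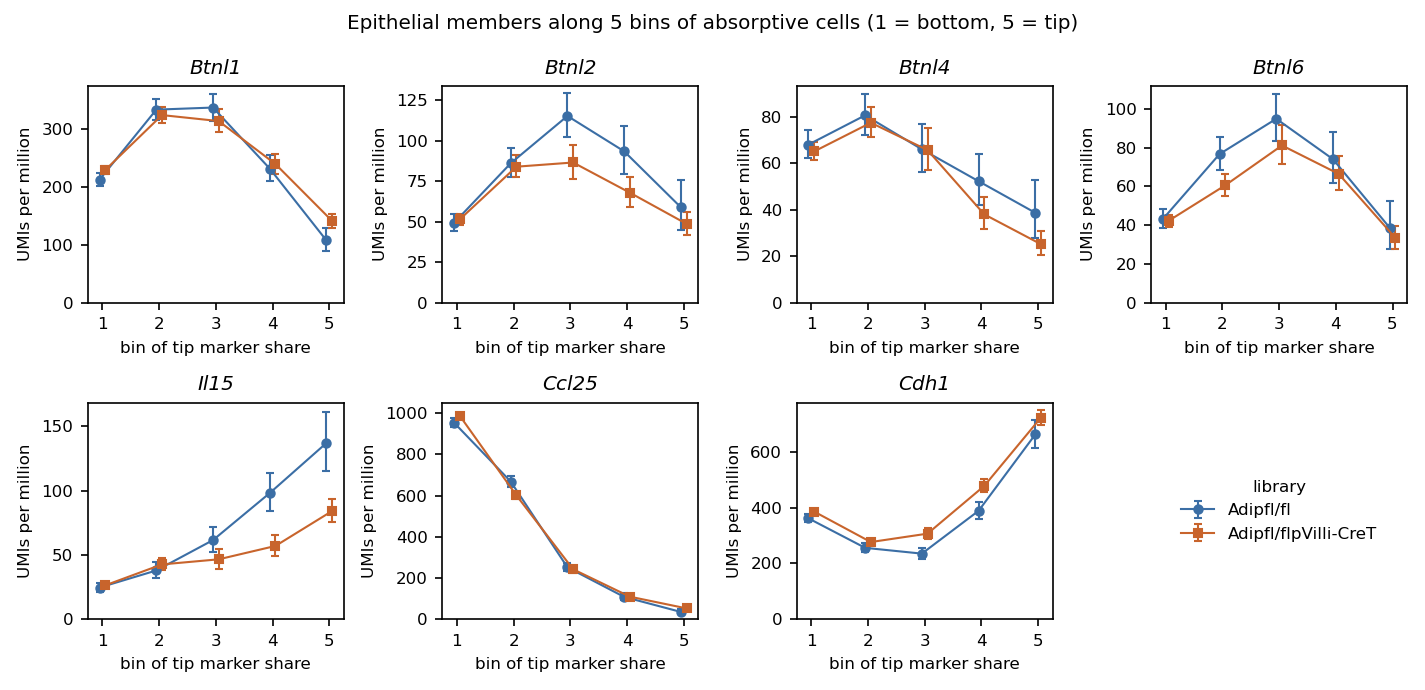
Levels of the 7 epithelial genes (UMIs per 1000000, linear axis from 0) in 5 bins of absorptive cells ordered by the share of villus tip markers, with circles for Adipfl/fl, squares for Adipfl/flpVilli-CreT and bars for exact Poisson 95% intervals. Ccl25 declines from bin 1 to bin 5, Il15 climbs to 137 and 84.1, and Btnl1, Btnl2, Btnl4 and Btnl6 have their highest level in bin 2 or 3.

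Past a 2-fold difference between villus tip-like and villus bottom-like cells, 1 of the 7 genes was higher (Il15) and 1 lower (Ccl25) in each library. Mitochondrial genes took 19.4% and 19.3% of the UMIs at the tip against 6.49% and 6.07% at the bottom, and with these UMIs left out of the denominator Btnl2 of the control also passed, at 2.12, which made 3 genes there. Over all genes tested, 11.4% were higher and 45.8% lower by this measure in the control (7707 genes), and 11.7% were higher and 47.5% lower in the Villi-Cre library (7640 genes). The median gene was at 0.570 of its bottom level in the tip of the control and at 0.550 in the Villi-Cre library (log2 ratios of -0.81 and -0.86), so ratios near 1 stood above the median. Relative to that median, Il15 was at 8.81 and 4.83, Btnl2 at 3.21 and 2.41, Btnl6 at 2.91 and 2.67, Cdh1 at 2.14 and 2.61, Btnl1 at 1.72 and 1.65, Btnl4 at 1.22 and 1.01, and Ccl25 at 0.161 and 0.160. Among all genes, 3.59% (control) and 8.14% (Villi-Cre) had a higher tip-to-bottom ratio than Il15, and 6.07% and 5.20% a lower one than Ccl25.

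A list of 35 further epithelial genes of these pathways (presentation, adhesion, chemokines, transcription factors) was read the same way. In the control, 16 of them reached the minimum level, with 3 higher and 7 lower past 2-fold at the tip. In the Villi-Cre library 17 reached it, with 5 higher and 7 lower. Set beside the shares over all genes (11.4% higher and 45.8% lower, and 11.7% and 47.5%), the lower counts are near the background. The higher counts, 3 of 16 and 5 of 17, lie above it but rest on few genes. The genes below are therefore given as values, and the list as a whole was not tested. Cxcl16, the membrane-bound ligand of Cxcr6, was 11.2-fold and 6.75-fold higher at the tip (54.2 and 48.4 CPM there). Epcam, an epithelial adhesion molecule, was 2.26-fold higher in both libraries, and Ctnna1, which links cadherins to actin, was 2.27-fold and 2.37-fold higher. On the other side, Il15ra, the chain that presents interleukin 15, was lower at the tip by ratios of 0.407 and 0.276 (19.4 and 15.2 CPM at the bottom, 7.87 and 4.20 CPM at the tip), opposite in direction to Il15. Il18, another epithelial cytokine, had ratios of 0.0455 and 0.0328, and the chemokine gene Ccl28 had 0.0254 and 0.0260. H2-T3, the thymus leukemia antigen that binds CD8alphaalpha, had ratios of 0.449 and 0.298 with its highest level at mid-villus (254 and 207 CPM), and Hnf4g had 0.450 and 0.316. The intestinal transcription factors Cdx2 (0.249 and 0.285) and Cdx1 (0.406 and 0.420) were also lower at the tip. The catenin genes Ctnnb1 (1.24 and 1.2) and Ctnnd1 (1.29 and 1.29) stayed under 2-fold in both libraries, and Hnf4a (1.78 and 2.00) and, outside the rule for named genes, Ocln (1.73 and 2.13) passed it in the Villi-Cre library alone.

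Genes with the profile most like each epithelial gene were sought by Pearson correlation of log2(CPM + 10) over 26 points, each a cell class in 1 library, among 7254 genes. The points share libraries and most of the spread lies between epithelial and other cells, so the values are descriptions. Btnl1 was closest to Dgat1 (r = 0.986), Mttp (0.985) and Gpat3 (0.984), which act in triglyceride synthesis and lipoprotein assembly, and Btnl6 to Dgat1 (0.972), Acbd4 (0.971) and Naprt (0.964). Btnl2 was closest to Soat2 (0.974), which esterifies cholesterol, Gm8909 (0.972) and Slc30a10 (0.965), a manganese exporter. For Btnl4 the nearest were Fam234a (0.978), Ckmt1 (0.966) and Hectd3 (0.965). Il15 was closest to Emp1 (0.951), Alpi (0.946), the intestinal alkaline phosphatase, and Pcyt2 (0.942). The nearest genes to Ccl25 were Glod5 (0.977), Cpt2 (0.971) and Zfyve21 (0.967), and those to Cdh1 were Ctnnb1 (0.966), Dsg2 (0.966) and Elf3 (0.964), of which the first binds its cytoplasmic tail and the second is a desmosomal cadherin.

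Outside the absorptive line, Cdh1 in goblet-like cells (419 and 448 CPM) and tuft-like cells (445 and 431 CPM) lay within the range of the villus classes, and it was at 299 and 337 CPM in enteroendocrine-like cells. Btnl4 reached 63.1 CPM (44.9 to 86.2) and 45.7 CPM (31.3 to 64.5) in tuft-like cells. Ccl25 was at 230 and 279 CPM in tuft-like and at 165 and 164 CPM in enteroendocrine-like cells, below villus bottom-like cells in all cases. The 10 mid-villus markers summed to 9531 and 9952 CPM in tuft-like cells and to 3150 and 4257 CPM in enteroendocrine-like cells. In absorptive cells they summed to 13682 and 12331 CPM. The part of enterocyte RNA in the levels of tuft-like and enteroendocrine-like cells was not tested. In goblet-like cells Ccl25 was at 124 CPM (109 to 141) in the control and 229 CPM (214 to 245) in the Villi-Cre library, a ratio of 1.85 (1.60 to 2.15), and Btnl1 at 61.2 and 87.0 CPM, a ratio of 1.42 (1.15 to 1.77). The 10 mid-villus markers, none at 0 in either library, summed to 3777 and 5128 CPM in the same cells. Without the 20% of goblet-like cells with the highest share of these markers, an alternative added after the data were seen that left 197 of 225 control and 309 of 408 Villi-Cre cells and so took a larger share of the Villi-Cre library, Ccl25 was at 46.0 and 54.0 CPM (ratio 1.17, 0.859 to 1.61) and Btnl1 at 19.2 and 20.2 CPM (1.05, 0.637 to 1.76). Both intervals then held 1.

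The 3 receptors were far above absorptive cells in T cell-like cells. In T cell-like cells Il2rb was at 815 CPM (773 to 859) in the control and 639.9 CPM (605 to 676) in the Villi-Cre library, Ccr9 at 281 (256 to 307) and 306 CPM (283 to 332), and Itgae at 739 (699 to 780) and 594 CPM (561 to 629). Absorptive cells, which are the 3 villus classes with the unnamed enterocyte clusters 3 and 9, held 0.769 and 1.74 CPM of Il2rb, and 1.01 and 1.48 CPM each of Ccr9 and Itgae. In thinned T cell-like cells the share with a UMI was 65.2% and 54.3% for Il2rb, 37.1% and 37.8% for Ccr9 and 70.8% and 65.2% for Itgae, whereas in thinned absorptive cells none of the 3 exceeded 0.332%.

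Within the T cell-like and cycling T cell-like cells, 6 sub-clusters were found. Sub-cluster 0 (179 and 172 cells) was led by Tyrobp and Ccl5, and sub-cluster 1 (94 and 94 cells) by Tcf7 and Nsg2. Trdc, the constant part of the delta chain, was at 774 and 941 CPM in sub-cluster 0 and 770 and 831 CPM in sub-cluster 1, against 0 and 16.1 CPM in sub-cluster 2 (46 and 106 cells), which carried Cd8b1, Cd4, Cd5, Cd6 and Cd28 and is alpha beta-like. Sub-clusters 0 and 1 were not named gamma delta cells, because only 1 marker of the gamma delta list was 2-fold above the other cells in each. Their alpha beta markers summed to 2557 and 2161 CPM in sub-cluster 0 and 2598 and 2872 CPM in sub-cluster 1. Their gamma delta markers summed to 2258 and 2642 CPM, and 2274 and 2524 CPM. Sub-cluster 2 held 4576 and 4361 CPM of alpha beta markers and 139 and 393 CPM of gamma delta markers. Sub-cluster 5 (30 and 64 cells) held T cell transcripts together with all 10 mid-villus and all 10 villus tip markers.

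Of sub-clusters 0, 1 and 2, sub-cluster 0 had the highest Il2rb and the lowest Ccr9 level in both libraries, and both genes were higher in sub-cluster 1 than in sub-cluster 2 by their point values. Il2rb was at 1273 CPM (1198 to 1352) and 1252 CPM (1170 to 1339) in sub-cluster 0, at 379 and 407 CPM in sub-cluster 1, and at 226 and 124 CPM in alpha beta-like sub-cluster 2. Sub-cluster 0 exceeded sub-cluster 2 by 5.64-fold (4.10 to 7.98) in the control and 10.1-fold (7.52 to 13.9) in the Villi-Cre library. Ccr9 was at 175 CPM (148 to 206) and 186 CPM (155 to 222) in sub-cluster 0, at 458 and 688 CPM in sub-cluster 1 and at 422 and 433 CPM in sub-cluster 2. Sub-cluster 1 exceeded sub-cluster 0 by 2.62-fold (2.1 to 3.27) and 3.69-fold (2.97 to 4.61). Itgae was highest in sub-cluster 0 (908 and 900.3 CPM) and lower in sub-cluster 1 (696 and 509.8 CPM) and sub-cluster 2 (370.3 and 565 CPM), and sub-cluster 1 exceeded sub-cluster 2 in the control by 1.88-fold (1.43 to 2.50) but not in the Villi-Cre library (0.902, 0.737 to 1.10). Cycling T cell-like cells held 564 and 580 CPM of Il2rb, 332 and 294 CPM of Ccr9 and 491 and 390.0 CPM of Itgae. The clusters were formed on these same cells, so the differences are a description.

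**Figure D3:**
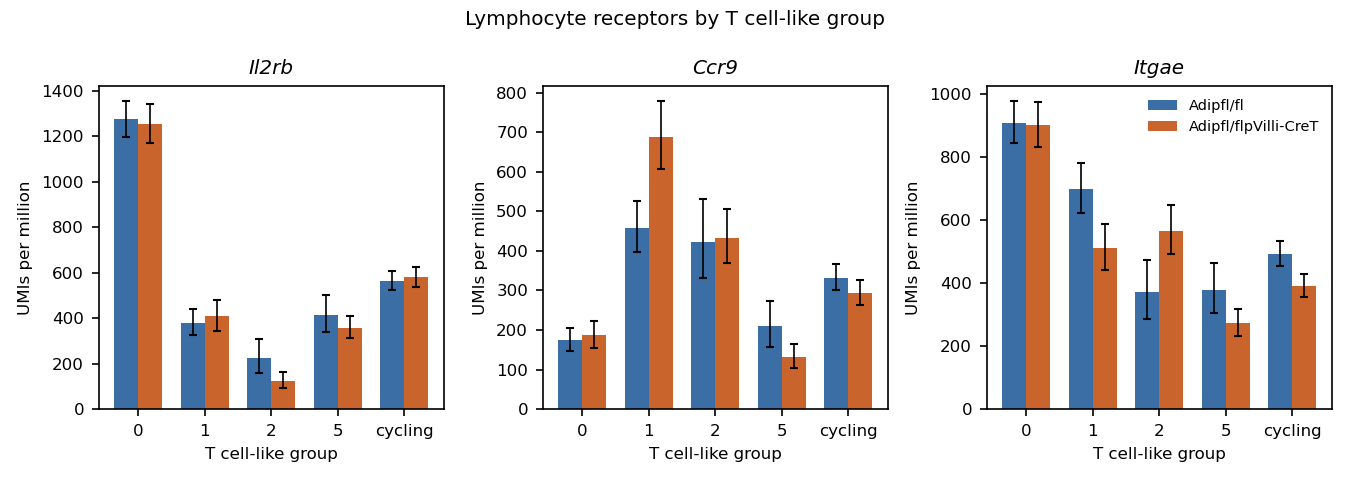
Levels of Il2rb, Ccr9 and Itgae (UMIs per 1000000, bars from 0) in T cell-like sub-clusters 0, 1, 2 and 5 and in cycling T cell-like cells, with blue bars for Adipfl/fl, orange bars for Adipfl/flpVilli-CreT and lines for exact Poisson 95% intervals. Il2rb is highest in sub-cluster 0 (1273 and 1252), where Ccr9 is at 175 and 186, and Ccr9 is highest in sub-cluster 1 (458 and 688).

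Ccr9 was also high outside the T cells. A cluster of 92 control and 61 Villi-Cre cells with plasma cell and myeloid transcripts, left unnamed because it held both, had 559 CPM (497 to 628) and 329 CPM (275 to 389) of Ccr9, from 287 and 134 UMIs. The 9 plasma cell markers summed to 94795 and 192693 CPM in this cluster and the 9 myeloid markers to 9402 and 5566 CPM, while the 12 T cell markers stood at 220 and 2454 CPM, so that its make-up differed between the libraries along with Ccr9, and the part of that in the ratio of 0.587 (0.475 to 0.724) was not tested. Ccr9 had a UMI in 27 of the 92 control and 25 of the 61 Villi-Cre cells. The marker sums cover the whole cluster, so they do not show which kind of cell carried Ccr9, and this was not tested. Il2rb was at 9.75 and 29.4 CPM in the cluster, and Itgae at 48.7 and 51.5 CPM.

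The receptors' nearest genes in the correlation over classes were T cell or leukocyte genes. Il2rb was closest to Prkch (r = 0.997), Lck (0.995), the kinase at the T cell receptor, and Nkg7 (0.995), a granule protein. Itgae was closest to Cd7 (0.996), Cd8a (0.995) and Rasgrp1 (0.994), and Ccr9 to Samsn1 (0.995), Laptm5 (0.994) and Cyth4 (0.993), which are expressed in many kinds of leukocytes.

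The libraries were then set against each other. In villus bottom-like cells 0 of the 7 epithelial genes passed a 1.5-fold ratio between Villi-Cre and control, where 2.01% of 7481 genes did. In mid-villus-like cells it was 0 of 7, against 3.39% of 6953 genes. In villus tip-like cells it was 1 of 7, against 7.26% of 5788 genes. That gene was Il15, with 108 CPM in the control and 68.7 CPM in the Villi-Cre library, a ratio of 0.637 (0.558 to 0.729). The median log2 ratio of the 7 genes at the tip was -0.33, against -0.02 over all genes tested. The share of called genes was higher at the tip than at the bottom for the genome as a whole, and 1 library a genotype gives no measure of how much such ratios vary between mice.

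The lower Il15 level was present in each of the 3 clusters that make up the tip class, with 133 against 86.0 CPM in cluster 0 (ratio 0.647, 0.535 to 0.785), 93.8 against 56.8 CPM in cluster 1 (0.605, 0.454 to 0.806) and 90.7 against 55.4 CPM in cluster 2 (0.611, 0.470 to 0.798). By bins, the ratio was 1.07 (0.899 to 1.28) in bin 1, 1.12 (0.924 to 1.37) in bin 2, 0.757 (0.598 to 0.956) in bin 3, 0.580 (0.469 to 0.719) in bin 4 and 0.614 (0.502 to 0.753) in bin 5. The lower level thus lay in the upper bins, and the intervals of bins 1 and 2 did not overlap those of bins 4 and 5. In cluster 10, part of the bottom class, Il15 was higher in the Villi-Cre library. It was at 13.4 and 20.7 CPM there, a ratio of 1.54 (1.08 to 2.26). In cluster 5, the other part of that class, the ratio was 1.09 (0.865 to 1.39). The 10 villus tip markers, all detected in both libraries, summed to 35972 and 33979 CPM in the tip class. They summed to 52887 and 46589 CPM in cluster 0, 17209 and 16950 CPM in cluster 1 and 34842 and 29052 CPM in cluster 2. Each of these differences had the sign of the Il15 difference and was smaller. Cluster 1 had 5 tip markers 2-fold above the other cells and none among its leading genes, so its tip name rests on less. The 11 villus bottom markers, all detected in the tip class of both libraries, differed more, with 8742 and 5719 CPM in the tip class, 5532 and 3436 CPM in cluster 0, 9412 and 8462 CPM in cluster 1 and 12179 and 6806 CPM in cluster 2. The make-up of the tip class thus differed between the libraries along with Il15, and its part in the Il15 ratio was not tested. In the barcodes removed by the mitochondrial limit, per 1000000 UMIs of other genes, Il15 was at 110 and 97.5, a ratio of 0.883 (0.802 to 0.971).

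Of the Btnl genes, Btnl1 had a ratio of 0.988 (0.902 to 1.08) in the tip class (197 and 195 CPM), whereas Btnl2 had a ratio of 0.706 (0.610 to 0.818), Btnl4 of 0.702 (0.576 to 0.858) and Btnl6 of 0.795 (0.678 to 0.934). These 3 lay below 1 in each of the 3 tip clusters, with intervals that left out 1 for Btnl2 in cluster 1 (0.684, 0.542 to 0.865), for Btnl4 in cluster 0 (0.612, 0.408 to 0.927) and for Btnl6 in none. The 3 clusters differed in size between libraries (303 and 854, 369 and 550, and 216 and 701 cells), and cluster 1, with the highest Btnl levels of the 3, made up less of the Villi-Cre tip. By bins, Btnl1 had a ratio of 1.31 (1.07 to 1.63) in bin 5, at the tip end, and 1.08 (1.02 to 1.14) in bin 1, with 1 inside the interval of the other bins. Btnl2 lay below 1 with an interval that left it out in bins 3 (0.751, 0.633 to 0.890) and 4 (0.727, 0.591 to 0.895), Btnl4 in bins 4 (0.727, 0.550 to 0.964) and 5 (0.650, 0.446 to 0.965), and Btnl6 in bin 2 (0.790, 0.681 to 0.916). At the bottom and mid-villus the 4 genes had ratios from 0.880 to 1.07. Of these intervals, Btnl4 (0.785 to 0.988) and Btnl1 (1.00 to 1.14) left out 1, both at the bottom. In bottom clusters 5 and 10, Btnl6 was at 0.795 (0.669 to 0.948) and 1.24 (0.939 to 1.65). Btnl4 was at 0.845 (0.728 to 0.983) and 0.940 (0.786 to 1.13) there. In cluster 3 Btnl2 was at 0.750 (0.612 to 0.919) and Btnl6 at 0.781 (0.633 to 0.962). Btnl1 (0.941) and Btnl4 (1.08) had intervals that held 1 there. In the removed barcodes the ratios were 1.04 for Btnl1, 0.775 for Btnl2, 0.833 for Btnl4 and 0.771 for Btnl6. The intervals of Ccl25 held 1 in all 3 villus classes, with ratios of 1.02 (0.991 to 1.05), 1.01 (0.966 to 1.06) and 0.982 (0.859 to 1.12). By bins its ratio ran from 0.900 (0.857 to 0.944) in bin 2 to 1.5 (1.05 to 2.20) in bin 5, where its level was low.

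Cdh1 was higher in the Villi-Cre library along the whole villus, by 1.09 (1.04 to 1.15) at the bottom, 1.12 (1.04 to 1.21) at mid-villus and 1.29 (1.21 to 1.36) at the tip. In tip clusters 0, 1 and 2 the ratios were 1.15 (1.06 to 1.24), 1.30 (1.12 to 1.52) and 1.27 (1.14 to 1.43). Cluster 0, with the highest Cdh1 level of the 3 (689 and 791 CPM), made up more of the Villi-Cre tip (303 of 888 and 854 of 2105 cells). By bins the ratio was 1.07 in bin 1, 1.08 in bin 2, 1.31 (1.18 to 1.45) in bin 3, 1.23 (1.12 to 1.35) in bin 4 and 1.09 (1.00 to 1.19) in bin 5. It was thus not highest at the tip end. In goblet-like cells the ratio was 1.07 (0.983 to 1.17) and in tuft-like cells 0.970 (0.821 to 1.15). The catenins of the same junction complex also lay above 1 at the tip, with Ctnna1 at 1.12 (1.07 to 1.18), Ctnnb1 at 1.10 (1.03 to 1.17) and Ctnnd1 at 1.19 (1.11 to 1.27), as did, outside the rule for named genes, the tight junction gene Ocln at 1.22 (1.11 to 1.33). Epcam, an adhesion gene of the same list, lay at 0.975 (0.959 to 0.991) at the tip and Nectin2 at 1.03 (0.916 to 1.15). Ocln was at 0.983 at the bottom and 1.02 at mid-villus. All of these stayed within 1.5-fold.

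**Figure D4:**
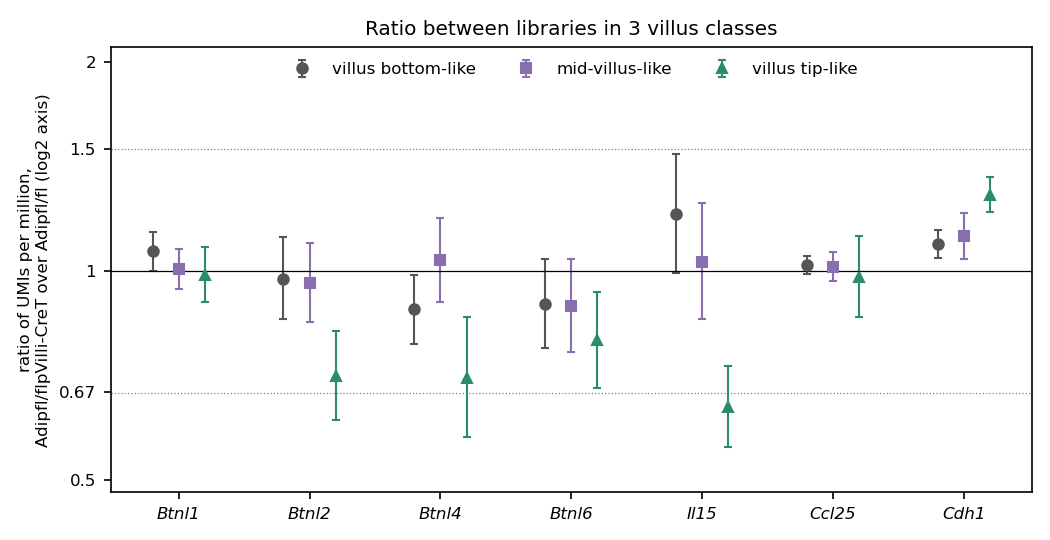
Ratio of UMIs per 1000000 between the Adipfl/flpVilli-CreT and Adipfl/fl libraries (log2 axis) for the 7 epithelial genes in villus bottom-like, mid-villus-like and villus tip-like cells, with exact 95% intervals for counting error and dotted lines at 1.5-fold. At the tip Il15 lies at 0.637, Btnl2, Btnl4 and Btnl6 between 0.702 and 0.795, and Cdh1 at 1.29.

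Among the 35 further epithelial genes, 15 reached the minimum in each of the 3 villus classes, and none passed 1.5-fold at the bottom or at mid-villus. At the tip 1 was lower, H2-T3 with 86.0 and 52.1 CPM (ratio 0.606, 0.521 to 0.706), and none was higher, which is near the background of 7.26% over all genes tested there. The median log2 ratio of the list at the tip was 0.04. Il15ra, below the minimum at the tip, had a ratio of 0.534 (0.313 to 0.920).

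Of the receptors, 0 of 3 passed 1.5-fold in T cell-like cells, where 17.9% of 8732 genes did, and their median log2 ratio was -0.31 against -0.05 over all genes. Il2rb had a ratio of 0.785 (0.727 to 0.847), Itgae of 0.804 (0.743 to 0.871) and Ccr9 of 1.09 (0.968 to 1.23). The make-up of the class differed along with these values. Alpha beta-like cells of sub-cluster 2, low in Il2rb, numbered 46 in the control and 106 in the Villi-Cre library, and the barcodes with enterocyte transcripts in sub-cluster 5 numbered 30 and 64. The mid-villus markers summed to 662 and 1785 CPM and the goblet markers to 308 and 4073 CPM in T cell-like cells. The goblet difference was not particular to this class, since these markers were higher in the Villi-Cre library in every named class apart from goblet-like cells. They stood at 374 and 1221 CPM in absorptive cells, 272 and 855 CPM in sub-cluster 0 and 178 and 8013 CPM in cycling T cell-like cells. The part of such background in the ratios between libraries was not tested.

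Inside sub-cluster 0, the largest, the receptors did not differ between the libraries beyond counting error, with ratios of 0.983 (0.898 to 1.08) for Il2rb, 0.992 (0.890 to 1.10) for Itgae and 1.07 (0.833 to 1.36) for Ccr9. Without sub-cluster 5, an alternative added after the data were seen, the ratios over T cell-like cells were 0.845 (0.780 to 0.915), 0.890 (0.819 to 0.967) and 1.30 (1.14 to 1.47), with mid-villus markers at 314 and 354 CPM. Sub-cluster 1 had more Ccr9 in the Villi-Cre library (458 and 688 CPM, ratio 1.5, 1.24 to 1.82) and less Itgae (ratio 0.732, 0.607 to 0.881). Sub-cluster 2 had less Il2rb (226 and 124 CPM, ratio 0.548, 0.350 to 0.863) and more Itgae (370.3 and 565 CPM, ratio 1.53, 1.15 to 2.05). In sub-cluster 2, Cd8b1, the CD8 beta chain, was at 422 and 565 CPM and Cd4 at 145 and 72.6 CPM, so the kinds of cells in it also differed between libraries, and their part in these ratios was not tested.

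A list of 45 lymphocyte genes of the same pathways, 43 of them in the tables, gave 35 genes over the minimum in T cell-like cells, of which 3 were higher and 2 lower past 1.5-fold, with a median log2 ratio of 0.00. As 17.9% of all genes tested in these cells passed 1.5-fold in either direction, 5 of 35 is near the background, and the genes are given as values. The higher genes were Itga4, the alpha 4 integrin chain (70.9 and 110 CPM, ratio 1.55, 1.24 to 1.95), the chemokine receptor gene Ccr2 (5.72 and 13.1 CPM, ratio 2.28) and S1pr1 (9.15 and 19.1 CPM, ratio 2.09), which guides exit from tissue. Among sub-clusters 0, 1 and 2, all 3 were highest in sub-cluster 2, at 347 and 366 CPM for Itga4. The lower genes were Klrk1, the receptor NKG2D (21.7 and 9.54 CPM, ratio 0.439, 0.239 to 0.781), and Crtam (34.3 and 19.6 CPM, ratio 0.571, 0.371 to 0.869). The 8 most abundant genes of the list had ratios of 1.07 for Runx3, 1.04 for Cd160, 0.891 for Bcl2, 1.06 for Mcl1, 0.847 for Itga1, 1.00 for Jak1, 0.882 for Cd244a and 1.01 for Il2rg, the common gamma chain that pairs with Il2rb. Outside the rule for named genes, Itgb7, the partner of Itgae, was at 230 and 206 CPM (ratio 0.896, 0.779 to 1.03) and Cxcr6, the receptor of Cxcl16, at 105 and 140 CPM (1.34, 1.11 to 1.62).

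Transcripts of the epithelial genes in T cell-like barcodes were set beside those of enterocyte markers. In sub-cluster 0, the mid-villus and tip markers together stood at 4.02% and 5.50% of their level in absorptive cells, and in sub-cluster 1 at 4.66% and 5.15%. Ccl25 in these sub-clusters was at 5.13% (3.38 to 7.46) and 3.37% (1.89 to 5.56), and 6.19% and 7.03%, of its absorptive level, in the range of the markers. Btnl1 was at 1.42% and 2.97% in sub-cluster 0. Cdh1 stood apart, at 25.4% (19.8 to 32.0) and 20.4% (15.4 to 26.5) in sub-cluster 0 and 28.1% (20.1 to 38.2) and 20.1% (13.5 to 28.7) in sub-cluster 1, from 71, 56, 41 and 30 UMIs. Its level of 85.6 and 82.1 CPM in sub-cluster 0 was 6.31 and 3.70 times the level expected from the markers. In the alpha beta-like sub-cluster 2 Cdh1 was at 13.7% and 14.0% of the absorptive level, from 8 and 21 UMIs. This was 3.64 and 2.75 times the level expected from the markers. In cycling T cell-like cells it was at 10.1% and 10.6% of the absorptive level, 2.63 and 1.75 times the expected level. The unnamed cluster with plasma cell and myeloid transcripts held 66.3 and 56.4 CPM of Cdh1, 2.24 and 1.21 times the expected level. The expected level rests on enterocyte markers alone and leaves out RNA from goblet cells, which held 419 and 448 CPM of Cdh1. Goblet markers were at 178 and 8013 CPM in cycling T cell-like cells and at 298 and 5975 CPM in the unnamed cluster. The Villi-Cre values of these 2 groups are therefore upper limits of the excess, and the goblet part was not tested.

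Other epithelial genes gave a scale for this. In sub-cluster 0, Epcam was at 6.73% and 10.1% of its absorptive level, Hnf4a at 3.08% and 2.45%, Ctnnd1 at 2.08% and 6.01%, Apoa4 at 3.56% and 6.15%, Slc5a1 at 2.44% and 2.22%, and Fabp1 at 2.31% and 3.08%. A further set, Hnf4g, Cdx2, Ocln, Nectin2, Il18 and Apoc3, lay between 0.493% and 6.91%. The interval of Cdh1 overlapped none of these 12 in sub-cluster 0. There, in the Villi-Cre library, it overlapped those of Btnl2, Btnl4, Btnl6 and Il15, which rested on 1 to 3 UMIs each. In sub-cluster 1 of the Villi-Cre library, with 30 Cdh1 UMIs, it overlapped those of Hnf4a (6.77%, 2.48 to 14.7) and Ctnnd1 (8.69%, 4.34 to 15.5). It also overlapped those of Btnl2, Btnl6 and Il15 in sub-cluster 1 of both libraries, from 0 to 3 UMIs each. In thinned cells, 18.1% and 17.1% of sub-cluster 0 held a Cdh1 UMI, against 7.83% and 4.79% for Ccl25. The part of epithelial RNA in the Cdh1 signal beyond these values was not tested.

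**Figure D5:**
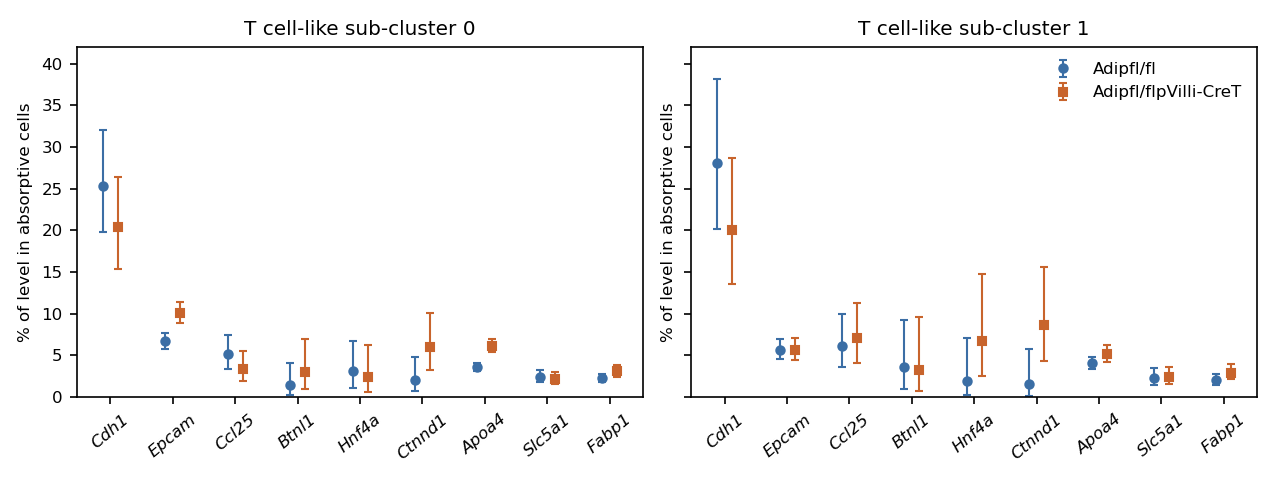
Levels of 9 epithelial genes in T cell-like sub-clusters 0 and 1 as a percentage of their level in absorptive cells of the same library (linear axis from 0), with circles for Adipfl/fl, squares for Adipfl/flpVilli-CreT and bars for exact 95% intervals. Cdh1 lies at 20.1% to 28.1%, above Epcam, Ccl25, Btnl1, Hnf4a, Ctnnd1, Apoa4, Slc5a1 and Fabp1.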

How the data were processed

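Single-cell RNA was measured with a 10x Genomics 3′ kit in 1 library per genotype. The authors deposited raw UMI counts per gene and barcode, made with bcl2fastq 5.0.1 and Cell Ranger (7.1.0 per the file headers) on build mm10. Whether intronic reads were counted is not given in the sources used here. All columns were matched to samples.

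The limits of the study's methods were applied, above 500 detected genes and below 25% of UMIs from mitochondrial genes. They leave fewer cells than the study states. Cells were clustered in Seurat 5.3.0 (R 4.3.3) with 2000 variable genes (the members and pathway lists left out), 20 components and resolution 0.8, and crypt-like and T cell-like clusters were clustered again at 0.4. A cluster was named from at least 3 markers 2-fold above the other cells, and stayed unnamed with fewer than 5 cells in a library or as many leading markers of another class. Parts of these naming rules were set after the clusters had been seen. Doublets were not removed, apart from an alternative.

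UMIs were summed per class and library with Python 3.11.15, numpy 2.4.6, pandas 2.3.3 and scipy 1.17.1, and figures drawn with matplotlib 3.10.9. Levels carry exact Poisson intervals, ratios exact conditional binomial intervals, and shares of cells thinned to 2000 UMIs Clopper-Pearson intervals, all at 95% and for counting error only. With 1 library per genotype no test between genotypes was possible. Genes with at least 10 CPM in the higher group and at least 20 UMIs were counted past 2-fold (zones) or 1.5-fold (genotypes). The intervals were run on counts simulated from the Poisson model that they assume. There 95.6% (villus tip-like) and 96.0% (T cell-like) of intervals for unchanged genes held the true ratio. The simulation has no spread between cells or mice, so it cannot show how the intervals behave under such spread. Named genes were the 10 members, the 8 most abundant genes of each pathway list with those past 2-fold between zones in both libraries or past 1.5-fold between genotypes with an interval without 1, and the 3 nearest genes by correlation. The members and lists were chosen with earlier results of these data known. Sequences are from a list of promoters at RefSeq starts (GRCm38.p6), and the list used held no entry for Il15, Il2rb, Cdh1 and Itgae.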

Additional observations from a re-analysis of the deposited data

Results flagged for a closer look

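Cdh1 differed in data outside the main measurement, the 4670 and 4263 barcodes removed by the mitochondrial limit. It was at 309 CPM of non-mitochondrial UMIs in the control and 435 in the Villi-Cre library, a ratio of 1.41 (1.34 to 1.48), which is within 1.5-fold. Of the receptors, Il2rb (0.415, 0.235 to 0.706, from 53 and 20 UMIs) and Itgae (0.497, 0.244 to 0.962, from 31 and 14 UMIs) lay further from 1 there. T cell markers in these barcodes were at 429 and 168 CPM.

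Itgae differed in opposite directions between T cell-like sub-clusters, with a ratio of Villi-Cre to control of 1.53 (1.15 to 2.05) in sub-cluster 2 and 0.732 (0.607 to 0.881) in sub-cluster 1. With 1 library per genotype the difference was not tested.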

How the results depend on the processing

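Each genotype has 1 library, so the spread between mice is unknown, and counting depth limits the scarcest values, such as Il15 in stem-like cells. No paired analysis was possible because each genotype has 1 library. With a mitochondrial limit of 10%, which leaves 13 of 888 and 23 of 2105 villus tip-like cells, 4 (control) and 5 (Villi-Cre) epithelial genes passed 2-fold between tip and bottom in place of 2 and 2, and 3 passed 1.5-fold between genotypes at the tip in place of 1. There the Villi-Cre ratio of tip to bottom turned to 0.888 for Btnl2 and 0.944 for Btnl6. With bins in place of clusters, 2 genes passed 1.5-fold between genotypes at the tip, and the ratio of tip to bottom turned to 0.896 for Btnl6 in the control, and to 0.947 for Btnl2 and 0.792 for Btnl6 in the Villi-Cre library. A count of 3 genes in place of 2 passed 2-fold between tip and bottom in the control without mitochondrial UMIs in the denominator or with the mean of single-cell CPM (Btnl2 at 2.12 and 2.20), and in the Villi-Cre library with bins (Btnl4 at 0.386). The Villi-Cre ratio of tip to bottom for Btnl1, 0.909 as reported, turned to 1.06 without mitochondrial UMIs in the denominator, 1.01 at resolution 1.2 and 1.05 with 30 components. The ratio of Il15 between genotypes at the tip was 0.264 at the 10% limit and between 0.614 and 0.668 under the other alternatives. Of 342 single values under all alternatives, 267 stayed within their interval, 67 moved outside it and 8 reversed. The cause was not tested.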
